A study of Zea mays with 6 samples.

Results

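The genes described here are 5 zein genes of maize (Zea mays) outside the large alpha-zein family. They are the beta-zein bz15 (GRMZM2G086294), the gamma-zeins gz16 (GRMZM2G060429), gz27 (GRMZM2G138727) and gz50 (GRMZM2G138689), and the delta-zein dzs18 (GRMZM2G100018). They were taken by identifier, and all 5 were found among the 39448 genes of each table. RNA of endosperm, the part of the kernel that stores starch and protein, was sequenced 10 days after flowering in 3 libraries of the floury3 mutant (fl3) and 3 wild-type (WT) libraries from field-grown plants. The labels name no allele, allele dose or inbred background, and do not say how many kernels or plants went into a library. The design text calls the 3 libraries of a genotype independent biological replicates. The product of floury3 belongs to the PLATZ proteins of plants, which bind zinc, and contacts factors of RNA polymerase III; the mutation gives soft, opaque kernels.

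Zeins are the prolamin storage proteins of maize, packed into protein bodies inside the endoplasmic reticulum. Beta- and gamma-zeins are rich in sulfur amino acids, are laid down first and form the shell of the protein body, cross-linked by disulfide bonds. Alpha- and delta-zeins fill its core, and delta-zeins are rich in methionine. Each beta-, gamma- or delta-zein is encoded by 1 or a few gene copies, whereas alpha-zeins come from many near-identical copies. The number in each symbol is the nominal mass of the protein in kDa. In the NCBI RefSeq gene table of assembly Zm-B73-REFERENCE-NAM-5.0, gz16 lies on chromosome 2, bz15 and dzs18 on chromosome 6, and gz50 and gz27 on chromosome 7. The delta-zein dzs10 matched no row by identifier and was not analysed here.

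Values are FPKM, the fragments of a gene scaled to its length and to the size of the library, so levels of different genes can be compared per length. The tables hold no read counts, so the depth is unknown and no counting interval is given. The FPKM of a library summed to 465741 to 480602. Over the 17272 genes that averaged at least 1 FPKM, correlations of log2(FPKM + 1) between libraries were 0.988 to 0.991 among fl3 libraries, 0.992 to 0.995 among WT libraries and 0.895 to 0.900 between genotypes. Transcripts of the floury3 gene (GRMZM2G006585) averaged 3158 ± 67.3 FPKM in fl3 and 2260 ± 164 FPKM in WT (SD, n = 3 each). The level of a transcript does not check the genotype of an allele that is still transcribed.

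The endosperm label was checked against markers. All 5 matched endosperm markers were detected, with a summed level of 1354 to 1554 FPKM in fl3 libraries and 2251 to 2409 FPKM in WT libraries. The sum of 4 markers of green maternal tissue reached at most 0.242 FPKM in fl3 and 0.208 FPKM in WT. Several other marker sums differed between the genotypes. Embryo-surrounding region markers (5 genes) summed to 471 to 612 FPKM in fl3 and 141 to 179 FPKM in WT, and 3 embryo markers to 218 to 251 FPKM in fl3 and 145 to 160.2 FPKM in WT. Basal transfer layer markers (5 genes) ran from 1609 to 3003 FPKM in fl3 and from 1300.2 to 1909 FPKM in WT, and 3 aleurone markers from 60.8 to 67.1 FPKM in fl3 and from 55.5 to 60.8 FPKM in WT. Genes of 1 list did not all differ alike. The aleurone marker cr4 averaged 15.7 FPKM in fl3 and 4.65 FPKM in WT, against 34.8 and 38.0 FPKM for Sal1 and 14.0 and 14.8 FPKM for dek1. Most of the embryo sum was ole1 (219 FPKM in fl3 and 140 FPKM in WT). In the basal transfer layer list betl3 averaged 25.9 FPKM in fl3 and 4.92 FPKM in WT, and bap2 1081 and 967 FPKM. Also counted in that list, mrpa1 (GRMZM2G113203) reached at most 0.198 FPKM in fl3 and 0.163 FPKM in WT. Its identity with the transfer layer marker mrp1 was not checked. No marker of these lists was at 0 in all 6 libraries. The part of these compartments in the results below was not tested. In bulk tissue, fewer cells of a type and less RNA per cell cannot be told apart.

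Setting fl3 against WT asks how zein transcripts of the mutant differ. In fl3, bz15, gz50, gz16 and gz27 fell, 4 of the 5 genes (2 under quantile normalization and 3 with no filter on low values). None rose, 0 of 5, but 1 did (dzs18) under quantile normalization, without fl3 replicate 1 and with the replicate number as a block. A gene is said to have risen or fallen where limma, fitted over all 17272 tested genes, gave a Benjamini-Hochberg adjusted p under 0.05. The fall was deepest for bz15, at 3.14-fold, and gz27 fell by 1.64-fold. The delta-zein dzs18 had a higher mean in fl3 but did not pass the test. The same test called 23.8% of all tested genes lower and 43.5% higher. Among the 1730 genes that averaged at least 50 FPKM, which include all 5 zeins, it called 31.5% lower and 36.4% higher. The median log2 fold change (fl3 minus WT, of log2(FPKM + 1), which understates the change of low genes) was -0.83 over the 5 zeins, 0.14 over all tested genes and 0.03 over the 1730.

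**Figure D1:**
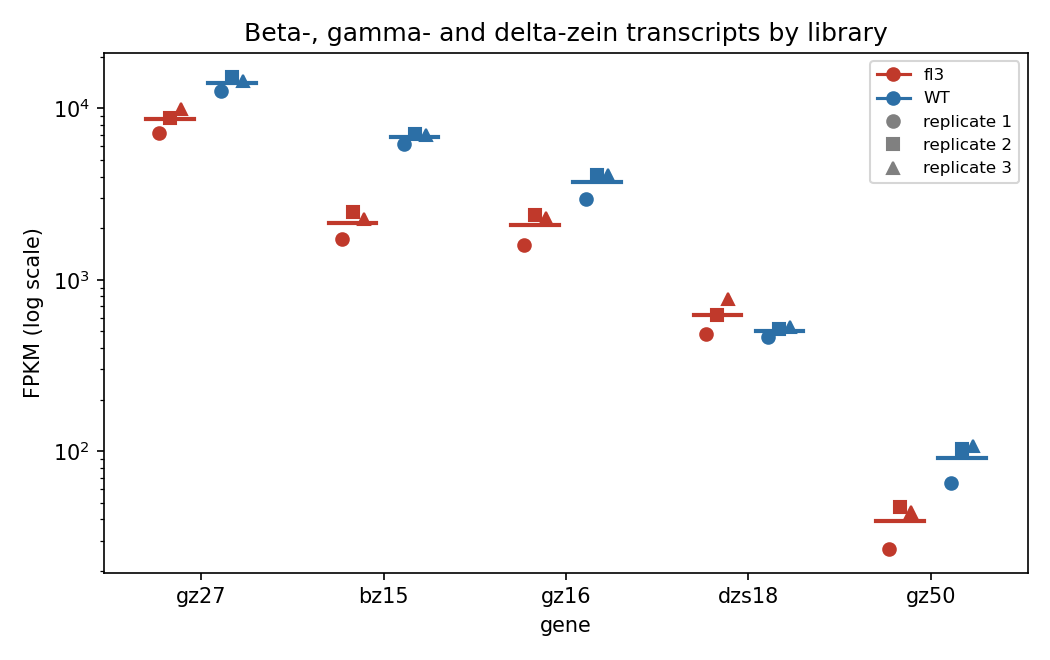
FPKM of each gene (log axis) in the 3 fl3 libraries (red, left) and the 3 WT libraries (blue, right); points are libraries, shaped by replicate number, and bars are group means. The genotypes separate for gz27, bz15, gz16 and gz50 and overlap for dzs18, whose 3 fl3 libraries lie between 480 and 769 FPKM.

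The beta-zein bz15 encodes a methionine- and cysteine-rich protein of the protein-body shell. It stood at 1724, 2492 and 2259 FPKM in fl3 replicates 1 to 3, against 6221, 7051 and 7041 FPKM in WT replicates 1 to 3. Every fl3 library lay far below every WT library, and the highest fl3 value was under the lowest WT value. The log2 fold change was -1.66 (SE 0.15, 95% interval -1.998 to -1.33, limma adjusted p = 1.88e-05). In WT it was the gene of second highest FPKM in each library (rank 2 of 39448), and in fl3 it held ranks 8, 5 and 8. Only 1.63% of tested genes had a lower log2 fold change.

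The gamma-zein gz27 encodes the cysteine-rich protein with proline-rich repeats that starts protein-body formation. Its transcripts measured 7164, 8844 and 9882.5 FPKM in fl3 and 12591, 15337 and 14438.5 FPKM in WT. It held rank 1 in all 6 libraries, so it stayed the gene of highest FPKM in fl3 although its level was lower. Means were 8630.15 ± 1372 FPKM in fl3 and 14122 ± 1400.04 FPKM in WT (SD, n = 3 each), and the genotypes did not overlap. The log2 fold change was -0.72 (SE 0.16, 95% interval -1.09 to -0.35, limma adjusted p = 0.00391). Without the filter on low values the same change did not pass (limma adjusted p = 0.149).

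The gamma-zein gz16 is a close relative of gz27 and the gene altered in the dominant opaque mutant mucronate. It had 1605, 2398 and 2289 FPKM in fl3, against 2961, 4108 and 4073 FPKM in WT. The genotypes did not overlap, and the gap was narrow, with 2398 FPKM in the highest fl3 library and 2961 FPKM in the lowest WT library. The log2 fold change was -0.83 (SE 0.18, 95% interval -1.25 to -0.41, limma adjusted p = 0.00377). Its rank was 11, 6 and 7 in fl3 and 7, 4 and 4 in WT. The fall did not pass under quantile normalization (log2 fold change -0.37, limma adjusted p = 0.0685), where a value depends on the rank within a library alone.

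The gamma-zein gz50 encodes the largest gamma-zein by nominal mass (50 kDa) and was by far the least abundant of the 5. It measured 26.9, 47.2 and 44.2 FPKM in fl3, against 65.1, 102.4 and 106.7 FPKM in WT. It was 2.32-fold lower in fl3 by means, and the genotypes did not overlap. The log2 fold change was -1.20 (SE 0.24, 95% interval -1.74 to -0.66, limma adjusted p = 0.00201). Its rank lay between 1881 and 3446 in fl3 libraries and between 681 and 1254 in WT libraries.

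The delta-zein dzs18 encodes a methionine-rich protein of the protein-body core. Its libraries read 480, 622 and 769 FPKM in fl3 and 463, 515 and 534 FPKM in WT. The genotypes overlapped, since fl3 replicate 1 lay within the WT range while the other two fl3 libraries lay above it. The log2 fold change was 0.28 (SE 0.15, 95% interval -0.07 to 0.64) and did not pass (limma adjusted p = 0.131). A rise by up to 0.64 and a small fall are both inside that interval. Without fl3 replicate 1 the rise passed, at 0.46 (limma adjusted p = 0.00844). Its rank was 82, 57 and 42 in fl3, against 105, 86 and 82 in WT.

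By non-overlap, too, 4 of the 5 genes were lower in every fl3 library than in every WT library, which held for 25.9% of tested genes; 71.7% did not overlap in either direction. The scaling of libraries moved these changes. Median-of-ratios scaling brought the median log2 fold change of all tested genes to -0.02, against 0.14 for FPKM as deposited. The 4 falls then ran from -0.90 (gz27) to -1.85 (bz15), and dzs18 stood at 0.10 (limma adjusted p = 0.59). Upper-quartile scaling gave -0.89 to -1.83 and 0.12 for dzs18. Quantile normalization gave -1.26 for bz15 and for gz50 and 0.41 for dzs18, which then passed (limma adjusted p = 0.0299). That method sets the highest gene of every library to 1 shared value, so its 0 for gz27, which held rank 1 throughout, follows from the method.

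**Figure D2:**
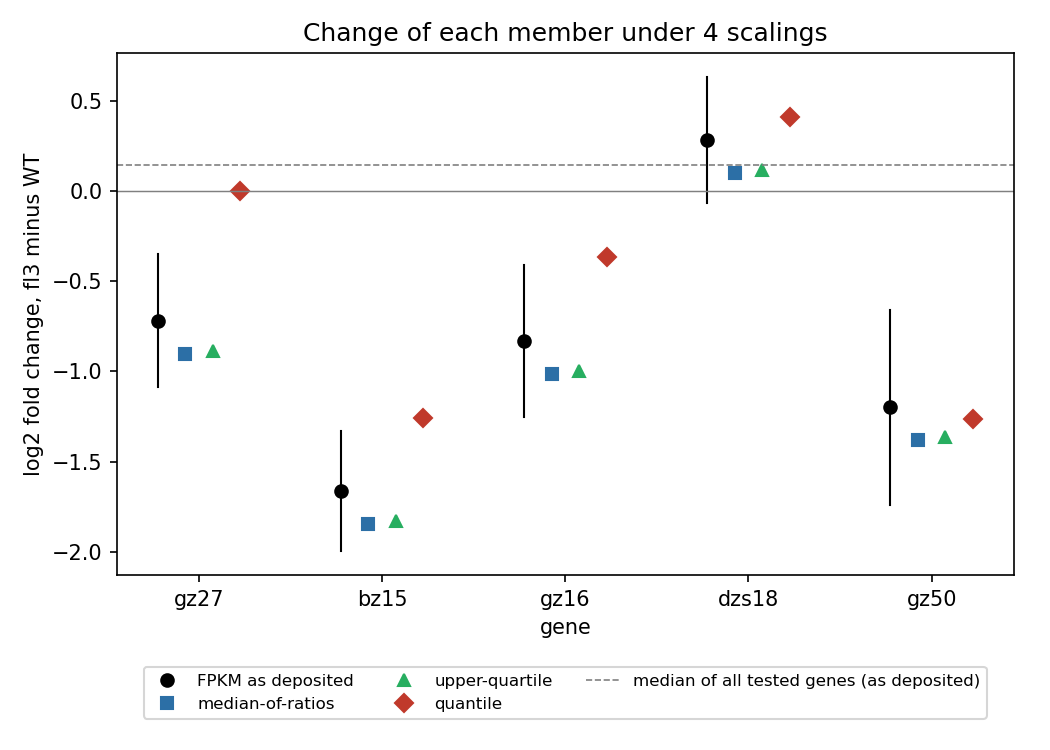
log2 fold change of each gene (fl3 minus WT) for FPKM as deposited, with its 95% interval from limma, and under 3 other scalings; the dashed line is the median of all tested genes as deposited, 0.14. bz15 and gz50 lie below 0 under all 4 scalings, dzs18 lies above 0 under all 4, and gz27 lies at 0 under quantile normalization.

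Replicate 1 was the lowest library of its genotype for all 5 genes, in fl3 and in WT. For gz50 it held 58.9% of the mean of the other two libraries in fl3 and 62.2% in WT, the deepest gap among the 5. For gz16 it held 68.5% in fl3 and 72.4% in WT, and for gz27 76.5% in fl3 and 84.6% in WT. For bz15 the values were 72.6% in fl3 and 88.3% in WT, and for dzs18 69.0% in fl3 and 88.2% in WT. The alpha-zein sum was lowest in the same libraries, at 62.6% of the other two in fl3 and 74.0% in WT. The sum of endosperm markers, which include the zein regulators o2 and pbf1, was lowest there as well (1354 FPKM in fl3 and 2251 FPKM in WT). Of its genes, o2, pbf1 and sh2 were lowest in replicate 1 of both genotypes, waxy1 in fl3 alone and ae1 in neither. The sum of embryo-surrounding region markers was highest in replicate 1 (612 FPKM in fl3 and 179 FPKM in WT). Each of its 5 genes was highest there in fl3. In WT this held for esr1, esr2 and esr6, but not for ESR3 and ae3. The other sums did not keep to replicate 1 in both genotypes. Basal transfer layer markers were highest in fl3 replicate 2 (3003 FPKM) and WT replicate 1 (1909 FPKM). Embryo markers were highest in fl3 replicate 3 (251 FPKM) and WT replicate 1 (160.2 FPKM), and aleurone markers in fl3 replicate 1 (67.1 FPKM) and WT replicate 2 (60.8 FPKM). The part of tissue composition in this pattern was not tested. Across all tested genes the deviations of equally numbered libraries did not run together, with correlations of -0.15, 0.07 and -0.02.

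The 5 genes varied more between libraries of 1 genotype than most of the 1730 genes that averaged at least 50 FPKM, a set not matched to their level. Their coefficients of variation ran from 15.9% (gz27) to 27.7% (gz50) in fl3, where the median of the same 1730 genes was 5.21%. In WT they ran from 7.04% (bz15) to 25.1% (gz50), against a median of 5.07%. In fl3 each of the 5 varied more than at least 93.2% of those genes. In WT this ran from 68.2% for bz15 and 70.3% for dzs18 to 98.7% for gz50. Replicate 1 was the lowest library for all 5 genes in each genotype, so the coefficients are not 5 separate observations.

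Proportions between the genes are free of any factor that scales a whole library. In fl3 the beta-zein took a smaller part of the five-gene FPKM sum, and gz27 and dzs18 took a larger part. The share of bz15 was 15.7%, 17.3% and 14.8% in fl3, against 27.9%, 26.0% and 26.9% in WT. The share of gz27 was 65.1%, 61.4% and 64.8% in fl3, against 56.5%, 56.6% and 55.1% in WT. For both, the genotypes stood clear of each other.

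The share of dzs18 in the sum was 4.36%, 4.32% and 5.05% in fl3 and 2.07%, 1.90% and 2.04% in WT. Its mean share was 2.28-fold higher in fl3, although its own level did not pass the test. The five-gene sum was itself 1.86-fold lower in fl3 by means. A gene that fell by less than the sum, such as gz27, or that did not change thus takes a larger share without rising. The share of gz16 averaged 15.4% ± 1.09 in fl3 and 14.7% ± 1.21 in WT (SD, n = 3 each), and the libraries overlapped. As a share of all 26 listed zein rows (the 5 genes and 21 alpha-zein rows) it was 14.1% ± 1.07 in fl3 and 9.51% ± 0.567 in WT, and of the sum without gz27 42.6% ± 0.656 in fl3 and 33.3% ± 2.47 in WT, both without overlap (exact permutation p = 0.1 each). The share of gz50 averaged 0.287% ± 0.0415 in fl3 and 0.359% ± 0.06002 in WT, with overlap. Exact two-sided permutation tests gave p = 0.1 for bz15, gz27 and dzs18, 0.6 for gz16 and 0.2 for gz50. With 3 libraries against 3 the smallest possible p is 0.1, so none of these tests can pass; adjusted over the 5 shares the lowest was 0.167.

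**Figure D3:**
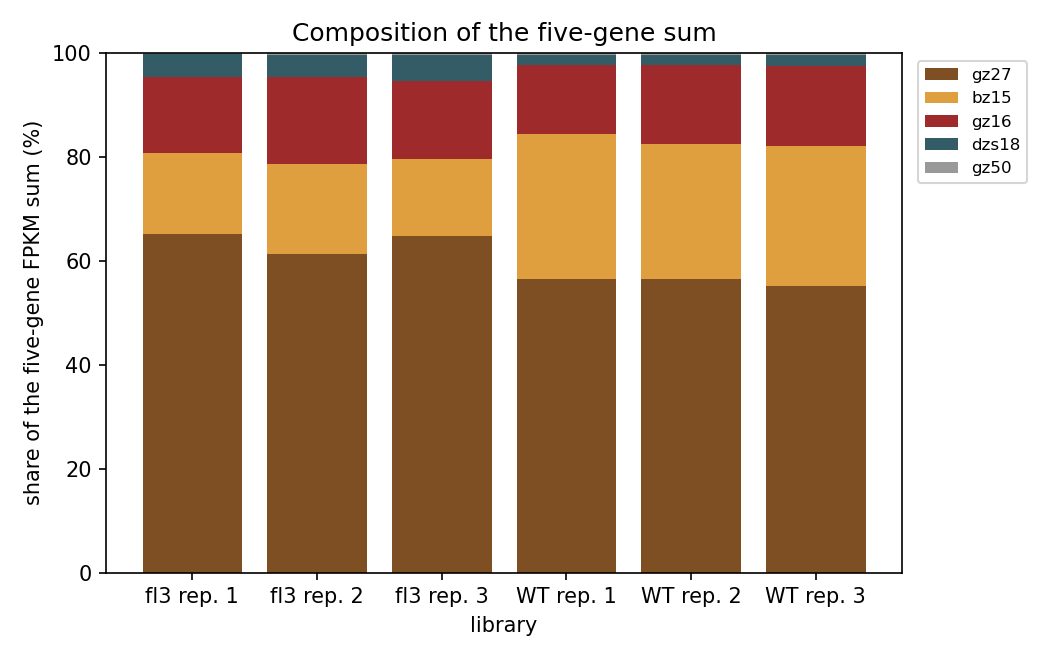
Share of each gene in the summed FPKM of the 5 genes (percent), 1 bar per library, with fl3 libraries left of WT libraries. The bz15 segment is 14.8% to 17.3% in fl3 and 26.0% to 27.9% in WT; gz50, at 0.245% to 0.407%, is too thin to see.

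Over all 5 genes the sum was 11000.3, 14402 and 15244 FPKM in fl3, against 22301, 27113 and 26193 FPKM in WT. That is 2.86% ± 0.443 of the library FPKM in fl3 and 5.27% ± 0.525 in WT (SD, n = 3 each; exact permutation p = 0.1, the smallest possible). The means of the sum differed by -11653 FPKM (fl3 minus WT). Of that difference gz27 made up 47.1%, bz15 39.6%, gz16 13.9% and gz50 0.446%, while dzs18 went the other way (-1.03%).

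Ratios of the genes to each other within a library separated the genotypes for 8 of the 10 pairs. The pairs share genes, so they are not 10 separate observations. How often ratios of other gene pairs separate the genotypes was not tested. Of single tested genes, 71.7% did not overlap between the genotypes in either direction. The delta-zein against the beta-zein moved most. The ratio dzs18/bz15 was 0.278, 0.2497 and 0.341 in fl3, against 0.0744, 0.0730 and 0.0758 in WT, a difference of 1.95 on the log2 scale. Its 3 WT values were close, with a coefficient of variation of 1.90%, although the levels of bz15 and dzs18 themselves varied by 7.04% and 7.32% in WT. In fl3 the ratio was not held as closely, with a coefficient of variation of 16.1%, against 18.2% for bz15 and 23.2% for dzs18.

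Ratios of the gamma-zeins to the beta-zein were higher in fl3 as well. The ratio gz16/bz15 was 0.931, 0.962 and 1.013 in fl3, against 0.476, 0.583 and 0.578 in WT, so the pair stood at near-equal FPKM in fl3. The ratio gz27/bz15 was 4.16, 3.55 and 4.38 in fl3, against 2.02, 2.18 and 2.05 in WT. On the log2 scale these differences were 0.83 and 0.95. The ratio gz50/bz15 differed by 0.44, with 0.0156 as the lowest fl3 value and 0.0151 as the highest WT value.

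Proportions among the gamma-zeins differed by smaller amounts. The ratio gz16/gz27 was 0.224, 0.271 and 0.232 in fl3, against 0.235, 0.268 and 0.282 in WT, a log2 difference of -0.11 with overlapping libraries (exact permutation p = 0.3). The ratio gz27/gz50 overlapped as well, at 226 ± 39.4 in fl3 and 159.5 ± 30.3 in WT (SD, n = 3 each; exact permutation p = 0.2). For gz16/gz50 the genotypes did not overlap, at 54.1 ± 4.83 in fl3 and 41.3 ± 3.80 in WT. Against gz27, the delta-zein made 0.0670, 0.0703 and 0.0779 of its FPKM in fl3 and 0.0367, 0.0336 and 0.0370 in WT, a 2.01-fold difference of means. The remaining pairs, dzs18/gz16 and dzs18/gz50, were higher in fl3 by 1.12 and 1.51 on the log2 scale. Exact permutation p was 0.1 for each of the 8 pairs without overlap and 0.125 after adjustment over the 10 pairs.

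**Figure D4:**
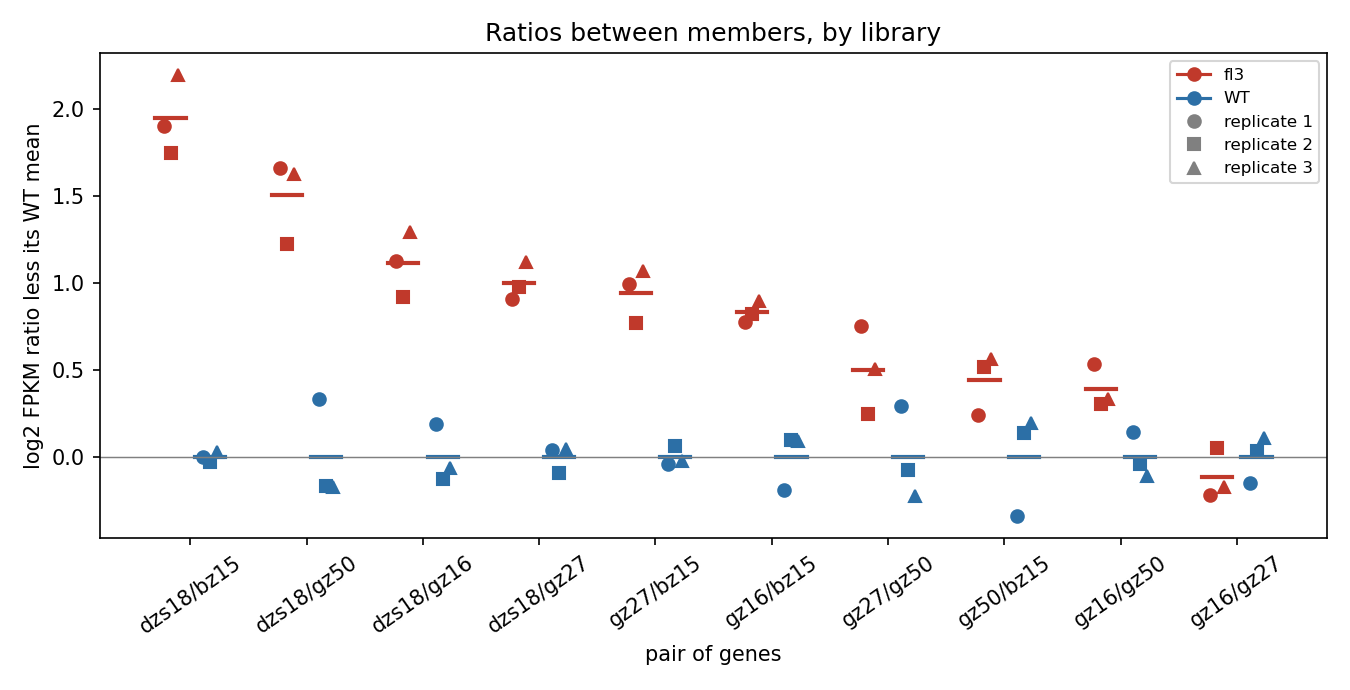
log2 FPKM ratio of each pair of genes in each library, less its WT mean; red fl3 libraries stand left of blue WT libraries and bars are group means. Ratios of dzs18 to the other 4 genes lie highest in fl3 (means 1.00 to 1.95), while gz16/gz27 lies around 0 in both genotypes.

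Alpha-zeins, the main proteins of the protein-body core, had lower log2 fold changes than the 5 genes as a median. The reference table names 21 alpha-zein rows, of which 18 were tested and all 18 fell, beside 23.8% called lower over all tested genes. Their log2 fold changes ran from -5.87 to -1.60, with a median of -3.53. The change of -1.60 was that of z1C1_12 (GRMZM2G088365), at 0.18 FPKM in fl3 and 2.56 FPKM in WT, where the added 1 FPKM shrinks it. The alpha-zein sum averaged 1283 ± 393 FPKM in fl3 and 13680 ± 2393 FPKM in WT (SD, n = 3 each). Reads of near-identical alpha-zein copies may be split between rows, and alpha-zein rows that the table does not name are left out of the sum. The only named row of the z1B family (GRMZM2G025763) was at 0 in both genotypes, and no row of the z1D family was named. The sum is therefore of z1A and z1C transcripts alone. The five-gene sum was 12.0, 11.7 and 8.98 times the alpha-zein sum in fl3, against 2.01, 1.92 and 1.66 times in WT. Its log2 difference of 2.54 had an exact permutation p of 0.1, and the genotypes lay far apart.

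By means the alpha-zein sum was itself 10.7-fold lower in fl3, so the ratio to it is higher for any gene that fell by less. That held for each of the 5 genes, and it is not particular to them. Only 1.63% of tested genes had a lower log2 fold change than bz15, the deepest fall of the 5. The ratio of dzs18 to the alpha-zein sum was 13.2-fold higher, at 0.493 ± 0.0362 in fl3 and 0.0373 ± 0.00405 in WT. For gz27 the ratio was 6.93 ± 1.015 in fl3 and 1.04 ± 0.116 in WT. For bz15, which had the lowest of these 5 folds, it was 1.74 ± 0.364 in fl3 and 0.502 ± 0.0579 in WT (SD, n = 3 each). The 5 genes made up 91.5% ± 1.29 of the FPKM of all 26 listed zein rows in fl3 and 65.0% ± 2.30 in WT. Against the z1C alpha-zeins alone the five-gene sum stood at 83.2 ± 15.9 in fl3 and 5.54 ± 0.515 in WT. Against the z1A alpha-zeins alone it stood at 12.5 ± 1.94 in fl3 and 2.80 ± 0.288 in WT.

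Among 8 matched regulators of zein transcription, 2 passed upward, 4 passed downward and 2 missed the threshold, beside 23.8% lower, 43.5% higher and 67.3% called either way over all tested genes. One of the 4, MADS47 (GRMZM2G099577, log2 fold change -0.43), carries that name in the reference table, and its identity with the zein regulator of the name was not checked. The prolamin-box binding factor pbf1 (GRMZM2G146283), which binds promoters of alpha- and gamma-zein genes, had a log2 fold change of -1.16. The NAC-family gene NRP1 (GRMZM2G062650) had -1.09, and o2 (GRMZM2G015534), the bZIP activator of alpha-zein genes and of bz15, had -1.04. Adjusted p by limma was at most 8.07e-05 for these 3. The gene IDDveg9 (GRMZM2G129261) rose, at 174.7 ± 5.84 FPKM in fl3 and 112.8 ± 6.35 FPKM in WT (SD, n = 3 each). Only 1 of the 8 passed upward under quantile normalization, and 4 fell under each scaling tried.

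Among 16 identifiers for genes of protein bodies and of folding in the endoplasmic reticulum, 8 rose, 4 fell and 4 did not pass. These shares lie near the 43.5% and 23.8% of all tested genes. The symbol pdi4 is carried by a pair of identifiers that went opposite ways. GRMZM2G033829 rose (log2 fold change 0.53) and GRMZM2G034143 fell (-0.28). The disulfide isomerase pdi2 (GRMZM2G163421), of the enzyme family that forms disulfide bonds, had a log2 fold change of 1.85, and the calcium-binding chaperone crt2 (GRMZM2G358059) had 0.82. The protein-body membrane gene FL1 (GRMZM2G094532) had 0.65, and the protein-body gene O10 (GRMZM2G346263) had -0.62. Adjusted p by limma was at most 0.000193 for these 4. Under median-of-ratios and upper-quartile scaling 6 rose and 6 fell, and under quantile normalization 6 rose and 4 fell.

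**Figure D5:**
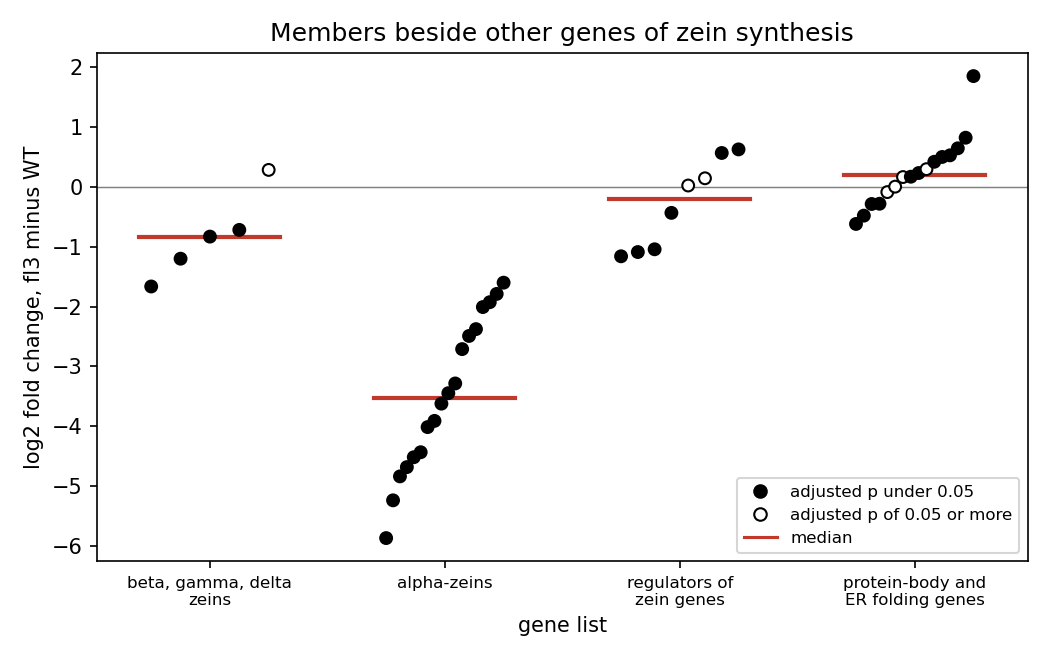
log2 fold change (fl3 minus WT) of single genes in 4 lists; filled points passed the limma test, open points did not, and red bars are medians. The medians are -0.83 for the 5 zeins, -3.53 for alpha-zeins, -0.21 for regulators and 0.20 for protein-body and folding genes.

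Likeness of pattern was measured as the distance between log2(FPKM + 1) profiles over the 6 libraries, each centred on its own mean, among 334 named genes that averaged at least 50 FPKM, with the 5 zeins themselves left out. Of these, the nearest to gz27 were sh2 (GRMZM2G429899), a subunit of ADP-glucose pyrophosphorylase in starch synthesis, at 0.19, als1 (GRMZM2G143008), an acetolactate synthase of branched-chain amino acid synthesis, at 0.23, and the starch phosphorylase pho1 (GRMZM2G074158) at 0.34. The same 3 of the 334 were nearest to gz16, in the order pho1 (0.39), sh2 (0.42) and als1 (0.42). The pair gz16 and gz27 was 0.31 apart, the closest pair of the 5 zeins, and gz16 and gz50 were 0.51 apart; gz16 was nearer to gz27, and gz50 to gz16, than to any of the 334. Levels of sh2 averaged 620.1 ± 71.5 FPKM in fl3 and 979 ± 41.5 FPKM in WT (SD, n = 3 each).

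The beta-zein had other neighbours in pattern. Nearest to bz15 were waxy1 (GRMZM2G024993), the granule-bound starch synthase, at 0.33, the ADP-glucose pyrophosphorylase subunit Agp2 (GRMZM2G106213) at 0.55, and the legumin leg1 (GRMZM2G174883) at 0.55. The distance takes in the difference between genotypes, so genes of like log2 fold change lie near each other. That change was -1.66 for bz15, -1.87 for waxy1 and for Agp2, and -1.28 for leg1. The legumin averaged 1133 ± 152 FPKM in fl3 and 2731 ± 92.7 FPKM in WT (SD, n = 3 each). Of the 334, the nearest to gz50 were pbf1 at 0.52, NRP1 at 0.58 and the sucrose synthase sh1 (GRMZM2G089713) at 0.70. Nearest to dzs18 were genes with small rises, RPS27A (GRMZM2G431821) at 0.36, PAD1 (GRMZM2G042604) at 0.39 and znf1 (GRMZM5G836222) at 0.40. RPS27A averaged 314 ± 26.8 FPKM in fl3 and 272 ± 6.82 FPKM in WT.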

How the data were processed

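RNA of endosperm was sequenced on an Illumina HiSeq instrument, per the labels' protocols. Each of the 6 libraries has its own table of FPKM values as the authors deposited it. FastQC, TopHat and Bowtie2 and the build B73 RefGen_v3 are named in the submitters' processing notes, with no role or order. Not given in the sources used here are the FPKM tool, the annotation and strand use. No 2 tables were identical, and depth is unknown.

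Genes that averaged at least 1 FPKM were fitted as log2(FPKM + 1) with limma 3.58.1 in R 4.3.3 (eBayes with trend), with genotype as the only term, after a test on simulated data. Shares and ratios were compared by exact two-sided permutation tests (SciPy 1.17.1). Names, chromosomes and gene order came from the RefSeq gene table; no coordinates of it are given, because the assembly differs. Homonyms that were recognized in the lists were left out. The named genes are the 5 zeins, the 3 nearest in pattern to each, and up to 4 per list by size of change. Members and lists were chosen with earlier results of these data known. Equally numbered libraries were not treated as pairs. Alternatives covered pseudocount, filter, scaling, variance model, library weights, replicate block and each library left out. Python 3.11.15, pandas 2.3.3 and matplotlib 3.10.9 were also used. No promoter or protein sequence was used here.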

Additional observations from a re-analysis of the deposited data

How the results depend on the processing

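Of 255 values recomputed for 24 results, 244 kept their direction and their side of the threshold or, for a count, stayed within 1.5 times it; the permutation tests among them cannot pass at this size, so for them this concerns direction alone. Under quantile normalization 2 of the 5 genes fell and 1 rose: gz16 (log2 fold change -0.37) and gz27 (0, by construction of the method) did not pass, and dzs18 passed at 0.41. With no filter gz27 kept -0.72 and did not pass (limma adjusted p = 0.149), so that 3 genes fell; the cause was not tested. With the replicate number as a block, dzs18 passed at 0.28 (limma adjusted p = 0.0474), so that 1 gene rose and 4 fell, and the calls over all genes were 7240 higher and 3897 lower, against 7519 and 4107 without the block; equally numbered libraries had correlations of deviations of -0.15, 0.07 and -0.02, and not every library correlated best with its own number. Leaving out 1 library at a time, the log2 fold changes ran from -1.78 to -1.51 for bz15, -0.99 to -0.65 for gz16, -0.82 to -0.59 for gz27, -1.42 to -0.95 for gz50 and 0.12 to 0.46 for dzs18; 4 genes fell each time and 0 to 1 rose. Taken of all listed zeins, the share of gz50 reversed (0.0304 percentage points higher in fl3) and that of gz16 no longer overlapped between genotypes, as also without gz27 in the sum (9.22 points higher in fl3, against 0.76 in the sum of all 5). Median-of-ratios scaling turned the split of all calls to 5659 higher and 5952 lower, and upper-quartile scaling to 5795 and 5783. The planned weighting by protein length and by amino acid composition was not run, as no protein sequence was used here.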

Other observations

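In the gene order of the reference assembly gz50 and gz27 are direct neighbours on chromosome 7. Of the genes directly beside the 5 zeins, the following have a row in the files. Beyond gz27, LOC100279908 is matched by a pair of identifiers: GRMZM2G138976 had 30.2 FPKM in fl3 and 32.9 FPKM in WT, and GRMZM5G873335 had 31.2 FPKM in fl3 and 34.2 FPKM in WT, and neither passed (limma adjusted p = 0.108 and 0.202). On the far side of gz50, GRMZM2G117230 had 0.0940 FPKM in fl3 and 0.126 FPKM in WT. Beside bz15, GRMZM2G087570 averaged 118 FPKM in fl3 and 97.9 FPKM in WT and rose by a log2 fold change of 0.27 (limma adjusted p = 0.00315), and GRMZM2G057630 was listed at 0 in fl3 and at 0.158 FPKM in WT. Beside gz16, GRMZM2G060400 was listed at 0 in fl3 and at 0.00515 FPKM in WT. The genes directly beside dzs18 were not matched to a row. These genes were looked up after the data were seen, and those under 1 FPKM were not tested.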
